A study of Mus musculus with 5 samples.

Results

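The trypsinogen family was followed in primary acinar cells of the mouse pancreas through 9 genes, Prss1, Prss2, Prss3, Try4, Try5, Try10, 2210010C04Rik, Gm2663 and 1810009J06Rik. The members were taken by symbol, and all 9 were present among the 23284 symbols of each count table. All mice were C57BL/6 at 8 weeks of age and all carried p48-Cre, a Cre recombinase expressed from the p48 (Ptf1a) locus, which is active in pancreatic progenitors and acinar cells. The control group was 2 libraries from mice of the genotype p48-Cre. The knockout group was 3 libraries from mice of the genotype Arid1afl/fl;p48-Cre, whose Arid1a alleles are flanked by loxP sites for deletion by the recombinase; ARID1A is a subunit of a nucleosome remodelling complex. After digestion of the pancreas the cells recovered briefly in a serum solution, and captured mRNA was sequenced without strand information. The labels do not say whether each library came from its own animal, so the spread behind each p-value is that among libraries and may be technical.

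Trypsinogens are the inactive precursors of trypsin, a digestive protease that cuts proteins after lysine and arginine. Acinar cells store them in zymogen granules and secrete them into the duct, and in the gut enteropeptidase removes a short activation peptide that ends in a run of aspartates and a lysine. Trypsin then activates the other pancreatic zymogens, and its activation inside the acinar cell is a known early event of pancreatitis. In the mouse, Try4, Try5 and Prss2 encode abundant anionic trypsinogens and 2210010C04Rik a cationic one.

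The activation sites show how the members differ in the part by which a trypsinogen is recognised. Each line gives 39 bases of coding sequence from the GENCODE M21 transcript, 5′ to 3′, with the 5 codons ahead of the cleaved bond in capitals.
Try5: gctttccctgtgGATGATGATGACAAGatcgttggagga
Prss2: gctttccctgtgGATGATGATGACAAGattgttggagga
Try10: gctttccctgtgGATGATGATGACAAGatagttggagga
Prss3: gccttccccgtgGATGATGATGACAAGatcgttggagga
2210010C04Rik: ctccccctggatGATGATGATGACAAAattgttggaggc
Gm2663: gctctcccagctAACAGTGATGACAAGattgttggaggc
1810009J06Rik: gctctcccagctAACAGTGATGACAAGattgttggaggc
In 7 of the 9 members these 5 codons were 4 aspartate codons and 1 lysine codon, and the stretch of Prss1 and of Try4 was the same as that of Try5. Gm2663 and 1810009J06Rik held 2 aspartate codons and 1 lysine codon there, in a stretch that was the same in both. Their coding sequences were 99.5% identical to each other and 78.3% and 78.2% identical to that of 2210010C04Rik. Try4 and Try5 were 97.4% identical, Prss1 and Prss3 96.3%, and Prss2 was at most 91.9% identical to another member. In the order of genes that RefSeq gives for GRCm38.p6, 1810009J06Rik, Gm2663 and 2210010C04Rik lie on one side of the T cell receptor beta V genes of chromosome 6 and the 6 other members on the far side.

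The libraries differed in depth in the same way as in genotype. Without Rn45s, the ribosomal RNA precursor, and Lars2, whose count followed that of Rn45s, the controls held 67514 and 72006 counts and the knockouts 3155357, 3568906 and 3345121. Rn45s took 72.6% and 82.2% of all control counts against 6.78% to 10.9% of the knockout counts. Depth, Rn45s share and genotype therefore cannot be told apart in any comparison between the groups. Levels are given as CPM, a gene's count scaled to the library total without these 2 genes. The detection floor of 3 counts corresponds to 21.5 CPM over both controls together. Floors and intervals cover counting error only. The targeted gene itself had few counts, 0 and 3 in controls against 44, 121 and 42 in knockouts. The edgeR log2 fold change of Arid1a was -0.07 ± 1.64 (SE, adjusted p = 0.985), and a count over the whole gene cannot show whether the floxed part was lost, so it does not check the labels. Of 12 acinar markers, 9 had a control count and 11 a knockout count, with summed levels of 266004 and 327445 CPM in controls against 312590 to 344545 CPM in knockouts; the amylase gene Amy2a5 was at 0 in all 5 libraries and Ptf1a and Nr5a2 at 0 in the controls alone. Markers of other cells were low, with summed duct markers at 653 and 800 CPM in controls and 286 to 1327 CPM in knockouts and islet markers at 104 and 708 against 173 to 961 CPM. None of the 5 endothelial markers had a control count, and together they stood at 35 to 167 CPM in knockouts. Summed leukocyte markers stood at 27.8 and 163 CPM in controls and 64.6 to 343 CPM in knockouts, stromal markers at 0 and 222 CPM against 19.7 to 113 CPM, and the 5 erythroid markers were at 0 in every library. The part of these cells in the differences between groups was not tested.

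Together the 9 members took 13.6% and 14.1% of the control counts left without Rn45s and Lars2. They took 22.6%, 15.6% and 31.4% of the knockout counts. All 3 knockouts lay above both controls, knockout 2 by a small margin and knockout 3 with more than any other library. The mean family sum was 138483 ± 4054 CPM over controls (SD, n = 2) against 231912 ± 78802 CPM over knockouts (SD, n = 3), a ratio of 1.67. An exact two-sided permutation test over libraries gave p = 0.2, the smallest value that 2 against 3 libraries allow. Without knockout 3 the log2 ratio was 0.44, against 0.69 with it. In bulk RNA a change in the number of acinar cells and a change in RNA per cell cannot be told apart.

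The summed level of other secreted products overlapped between the groups. The 27 other digestive enzyme and granule protein genes, chymotrypsinogens and elastases among them, summed to 520470 and 551107 CPM in controls against 523898, 492739 and 530680 CPM in knockouts. The count of the family relative to that of these 27 genes was 0.261 and 0.256 in controls against 0.431, 0.317 and 0.591 in the knockouts, again without overlap (exact permutation p = 0.2, two-sided). Chymotrypsinogens and elastases, the serine proteases nearest to trypsin among pancreatic zymogens, summed over 6 genes to 311135 and 302183 CPM in controls against 343019, 310103 and 296712 CPM in knockouts. The family stood at 0.436 and 0.468 of that sum in controls against 0.658, 0.504 and 1.06 in the knockouts (exact permutation p = 0.2, two-sided). That separation depended on 1 elastase gene, Cela2a, which was lower in the knockouts (log2 fold change -2.55, adjusted p = 7.53e-05, edgeR). Without Cela2a the ratio was 0.504 and 0.591 against 0.673, 0.520 and 1.09, and the groups overlapped. Single genes of this set went in different directions. Ctrb1 had 142711 and 139016 CPM in controls against 233072, 213667 and 165920 CPM in knockouts, higher without overlap. Its ratio of group means was 1.45, against 1.36 for Prss2 and 1.39 for 2210010C04Rik. Ctrl, Cela1 and Cela3b overlapped between the groups, and Ctrc and Cela2a were lower without overlap.

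**Figure D1:**
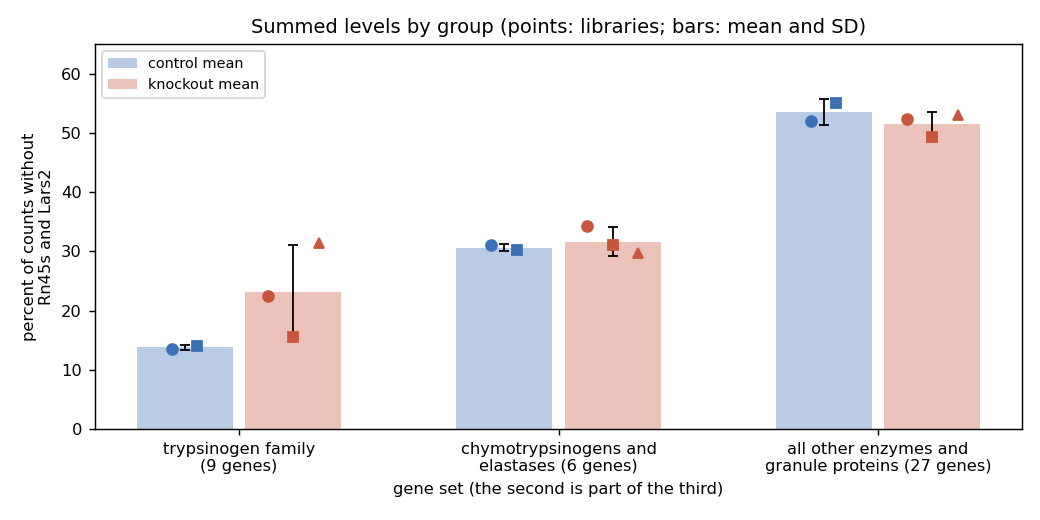
Percent of counts without Rn45s and Lars2 taken by the trypsinogen family, by chymotrypsinogens and elastases, and by the 27 other enzymes and granule proteins, which include the chymotrypsinogens and elastases; points are libraries, bars the group mean and error bars the SD. The family runs from 13.6% to 14.1% in the controls and from 15.6% to 31.4% in the knockouts, while the groups overlap in both other sets.

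Levels of different members can be compared only per length of transcript. On the scale of CPM per kilobase of the GENCODE transcript, the order in each knockout library was Try5, Prss2, Try4, 2210010C04Rik, Try10, Prss3 and Gm2663, followed by 1810009J06Rik and Prss1 in either order. In control 2 Prss2 stood ahead of Try5, at 57545 against 54389 CPM per kilobase, and in control 1 Try5 was ahead with 67198 against 49560. The neighbours Try5 and Prss2 therefore did not differ beyond their spread in the controls, and in the knockouts their ranges of 69810 to 181733 and 52757 to 92854 overlapped. Within each knockout library the count of Try5 was 1.70, 1.30 and 1.92 times that of Prss2, against 1.33 and 0.929 times in controls, with overlap. The knockout ranges also overlapped between Prss2 and Try4, between Gm2663 and 1810009J06Rik and between 1810009J06Rik and Prss1. Those of Try4 and 2210010C04Rik did not, but in knockout 2 the 2 members were nearly level, at 18378 and 18359 CPM per kilobase. The annotated transcript of 2210010C04Rik is 2142 bases long against 801 to 882 for the other members, and per kilobase of coding sequence it passed Try4 in 4 of the 5 libraries. These values were 34661 and 37521 CPM per coding kilobase against 20953 and 30975 for Try4 in controls, 53057 against 30418 in knockout 1, 53071 against 19947 in knockout 2 and 44800 against 72952 in knockout 3.

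Try5, the member with most counts in the knockouts, stood at 53826 and 43566 CPM in controls against 100169, 55918 and 145568 CPM in knockouts. The groups did not overlap, but knockout 2 lay close to control 1. The log2 fold change was 1.05 ± 0.41 (SE), with 3 of 3 knockouts above both controls and an adjusted p of 0.187 (edgeR quasi-likelihood test over all genes).

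Prss2, an anionic trypsinogen, had 40392 and 46899 CPM in controls against 58806, 42997 and 75676 CPM in knockouts. Knockout 2 fell between the controls, and the log2 fold change of 0.44 ± 0.43 did not pass (adjusted p = 0.602, edgeR).

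Try4, the close copy of Try5, had 15463 and 22859 CPM in controls against 22448, 14721 and 53839 CPM in knockouts. Only knockout 3 of the 3 knockouts exceeded both controls. The log2 fold change was 0.66 ± 0.49 (adjusted p = 0.572, edgeR), and without knockout 3 it was -0.04.

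2210010C04Rik, the cationic trypsinogen, varied least of the 4 among libraries of a group, with 25684 and 27803 CPM in controls against 39315, 39326 and 33197 CPM in knockouts. The groups did not overlap, and the log2 fold change was 0.48 ± 0.47 (adjusted p = 0.599, edgeR). In knockout 3, where Try4 and Try5 were at their highest, this member was at the lowest of the 3 knockout values.

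**Figure D2:**
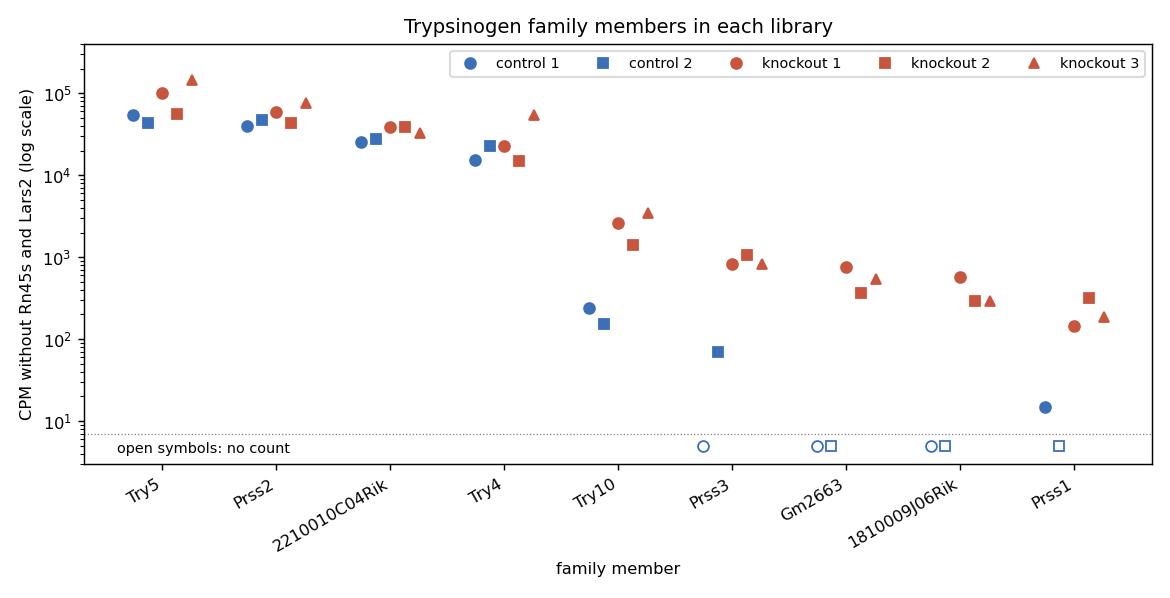
CPM without Rn45s and Lars2 on a log scale for each of the 9 members (x axis) in the 5 libraries; open symbols at the bottom are libraries without a count. Try5, Prss2, 2210010C04Rik and Try4 lie between 14721 and 145568 CPM in every library, while the other 5 members lie at 145 to 3510 CPM in knockouts and at 0 to 237 CPM in the controls.

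The remaining 5 members had low counts, and 4 of them were called higher in the knockouts. The division into 4 abundant and 5 low members was made after their values were seen. At an adjusted p under 0.05 over all genes, 4 of the 9 members were called higher and 0 lower, where 0.193% of the 8291 genes tested were called higher and 1.60% lower (edgeR). In a fit of only the 301 genes averaging at least 100 CPM, which include all 9 members, 5 members were called higher. There 5.98% of genes were called higher and 5.65% lower (edgeR). That average ran over all 5 libraries, and the control means of Prss1, Prss3, Gm2663 and 1810009J06Rik were 7.41, 34.7, 0 and 0 CPM. These members thus reached it only through the knockouts, and the count of 5 called is a description. All 9 members passed the low-count filter. On the controls alone 5 of them would have passed, while Prss1, Prss3, Gm2663 and 1810009J06Rik passed only through the knockouts, as did 94.8% of the genes tested. A difference was thus built into their passing, and the count of 4 called, 3 of them among these genes, is a description. The groups did not overlap, with the knockouts higher, for 7 of 9 members and for 35.6% of the genes tested, and with the knockouts lower for 0 members and 11.2% of genes. Among the 300 genes tested that averaged at least 100 CPM it was 23.0% in either direction. DESeq2 called 5 members higher, where it called 0.519% of genes higher and 5.64% lower. The median log2 fold change was 3.70 over the members and 0.22 over all genes tested. With 1 control left out the order of these medians was reversed. The median was 3.70 over the members against 6.06 over all genes without control 1, and 3.41 against 5.57 without control 2. Each time 3 of 9 members lay above the median of all genes. The low-count filter was run anew there and kept 10024 and 10009 genes, so the set of genes changed along with the controls.

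Try10, a trypsinogen whose coding sequence is 95.4% identical to that of Try4, had 16 and 11 counts in controls against 8348, 5061 and 11743 in the knockouts. This was 237 and 153 CPM against 2646, 1418 and 3510 CPM, with every knockout well above both controls. The log2 fold change was 3.70 ± 0.92 (adjusted p = 0.00884, edgeR). The pooled ratio of knockout to control was 12.9, with an exact 95% interval of 8.87 to 19.6.

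Prss3, a near-identical copy of the gene model Gm10334, had 0 and 5 control counts and 2600, 3764 and 2760 knockout counts. Its levels were 0 and 69.4 CPM in controls against 824, 1055 and 825 CPM in knockouts. The log2 fold change was 4.68 ± 1.21 (adjusted p = 0.0137, edgeR), and the pooled ratio was 25.3 (exact 95% interval 10.8 to 77.9). Without control 1 the log2 fold change was 3.70 and did not pass (adjusted p = 0.103, edgeR).

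Gm2663 and 1810009J06Rik, the pair with the divergent activation site, had no count in either control. Gm2663 had 2370, 1293 and 1831 counts in the knockouts, or 751, 362 and 547 CPM, at least 25.7-fold higher than the floor of 3 counts over both controls. 1810009J06Rik had 1819, 1044 and 983 counts, or 576, 293 and 294 CPM, at least 18-fold higher than that floor. Their adjusted p-values were 0.00141 and 0.00638 (edgeR), and their fitted fold changes depend on the prior count and are not given. Both genes were highest in knockout 1.

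Prss1 had 1 and 0 counts in controls against 459, 1150 and 629 in the knockouts, that is 14.8 and 0 CPM against 145, 322 and 188 CPM. Pooled over libraries, the knockout level was 31 times the control level (exact 95% interval 5.56 to 1225). The log2 fold change of 4.91 ± 1.68 did not pass (adjusted p = 0.104, edgeR), and was 3.88 without control 2 (adjusted p = 0.359). The groups did not overlap. Prss1 passed by DESeq2 (adjusted p = 0.0436), with TMM without Rn45s and Lars2 (0.0437), with a filter at 100 CPM on average (0.0484) and over full totals (0.0159), the last 3 with edgeR. It did not pass in edgeR with TMM on all genes and full totals (0.0572), RLE factors (0.0509) or upper quartile factors (0.0558). Nor did it pass in edgeR without the low-count filter (0.0862), under the replicate block (0.962) or without knockout 1, 2 or 3 (0.866, 0.191 and 0.108). By limma-voom the adjusted p was 0.569.

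Whether members were called depended on 1 knockout library and on the scaling. Without knockout 1 none of the 9 members was called by edgeR, where 0% of genes were called higher and 0.0686% lower. At an unadjusted p under 0.05 there were then 6 of 9 members and 161 of the 5831 genes tested. Without that library the log2 fold change was 3.66 for Try10 and 4.74 for Prss3, against 3.70 and 4.68 with it. With TMM factors over totals without Rn45s and Lars2, 5 members were called higher, Try10 (adjusted p = 0.0446, edgeR), Prss3 (0.0437), Prss1, Gm2663 (0.0265) and 1810009J06Rik (0.0304), where 1.77% of genes were called higher and 0.856% lower. For Try10 the log2 fold change was then 6.04 and the median over all genes 1.93. With TMM and Rn45s and Lars2 put back into the totals, Try10 (adjusted p = 0.06, edgeR) and Prss3 (0.0572) did not pass, while Gm2663 (0.0404) and 1810009J06Rik (0.0445) did, where 0.0605% of genes were called higher and 0.327% lower. Over full totals that include Rn45s all 9 members were called higher, where 1.80% of genes were called higher and 0.230% lower and the median log2 fold change over all genes was 2.73.

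**Figure D3:**
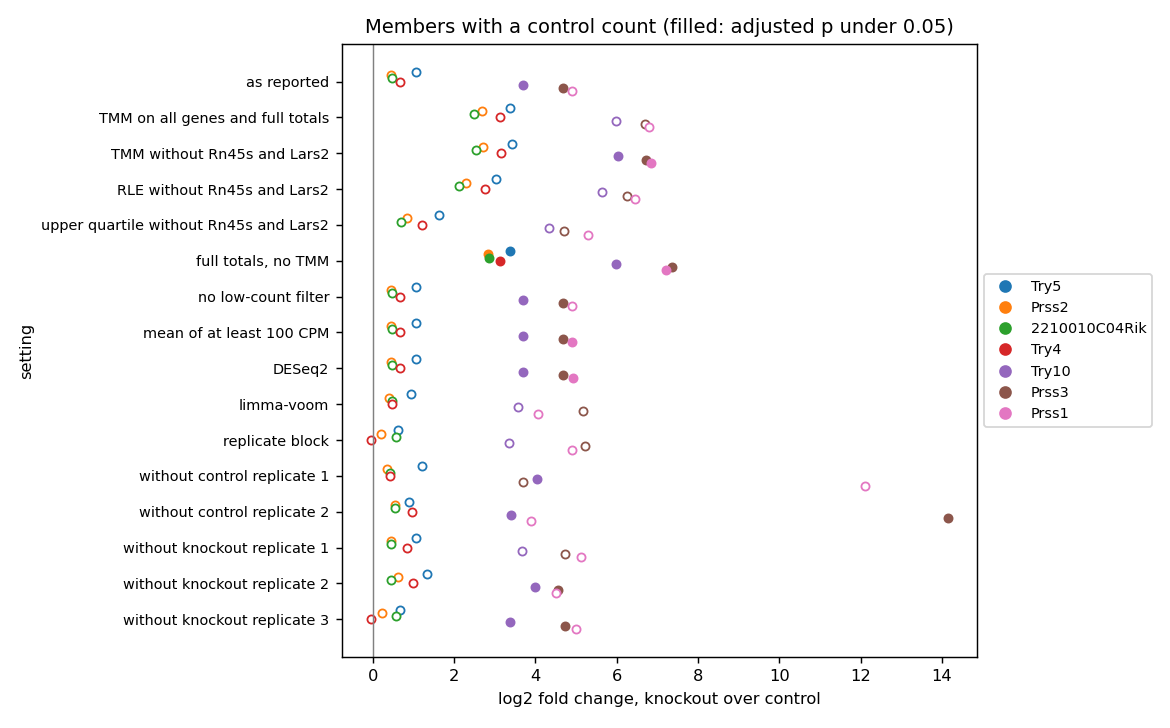
Log2 fold change (x axis) of the 7 members with a control count under each setting (y axis); filled points have an adjusted p under 0.05. Try10 and Prss3 are filled as reported and open with TMM on all genes and full totals; the 4 abundant members are filled with full totals and open in every other setting. The points of Prss1 without control 1 and of Prss3 without control 2 have no control count and are not bounded.

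Within the family, the 4 abundant members made up 99.8% of family counts in both controls and 97.8%, 97.8% and 98.3% in the knockouts. The 5 low members thus had 0.186% and 0.157% of family counts in controls against 2.19%, 2.21% and 1.71% in the knockouts. Shares within the family do not depend on the library total, to which Rn45s and other genes add. Reads that also match genes outside the family can still bear on these shares. Try10 took 0.175% and 0.108% of family counts in controls against 1.17%, 0.907% and 1.12% in the knockouts. Its ratio to Try5 was 0.0044 and 0.00351 in controls against 0.0264, 0.0254 and 0.0241 in the knockouts, with an SD of 0.00115 over the knockouts. That ratio was picked out after its values were seen.

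The control counts can be set beside those that the mean knockout share would give in the 9156 and 10178 family counts of the controls. The 5 low members were set apart after their values were seen. Of them 4 passed the low-count filter only through the knockouts, so a control shortfall was built in and the figures are a description. For Try10, at a mean knockout share of 1.07%, these were 97.6 and 109 counts, where 16 and 11 were found. For Prss3 the figures were 39.8 and 44.2 against 0 and 5, and for Prss1 10.1 and 11.2 against 1 and 0. For Gm2663 they were 22.6 and 25.1 against no count, and for 1810009J06Rik 16.4 and 18.2 against no count. A count of 0 over both controls allows a share of up to 0.0155% of family counts, while Gm2663 took 0.333%, 0.232% and 0.175% and 1810009J06Rik 0.255%, 0.187% and 0.0937% in the knockouts.

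Among the abundant members, Prss2 took 29.8% and 33.2% of family counts in controls against 26.1%, 27.5% and 24.1% in the knockouts. Its groups did not overlap and the knockouts were lower. In all, the family shares of 5 members were higher without overlap and that of 1 was lower, where 33.0% and 12.5% of genes tested were so relative to the family sum. The exact permutation test gave p = 0.2 (two-sided), the smallest possible and unadjusted over 9 members. Try5 took 39.7% and 30.8% against 44.4%, 35.8% and 46.4%, Try4 11.4% and 16.2% against 9.95%, 9.41% and 17.2%, and 2210010C04Rik 18.9% and 19.7% against 17.4%, 25.1% and 10.6%, each with overlap. The SD of the share of 2210010C04Rik was 0.517 percentage points over the controls and 7.28 over the knockouts.

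In the fit over all genes with the family sum as library size, 0 of 9 members were called by edgeR in either direction, where 0.0121% of the 8291 genes tested were called higher and 0.302% lower. At an unadjusted p under 0.05 there were 5 members, which were the 5 of low level, and 716 of the 8291 genes. DESeq2 called 3 higher, where it called 0.157% of genes higher and 4.57% lower. The unadjusted p-values from edgeR were 0.000666 for Gm2663 (adjusted p = 0.131), 0.00202 for 1810009J06Rik (0.217), 0.00678 for Prss3 (0.346), 0.0124 for Try10 (0.39) and 0.0398 for Prss1 (0.536). Prss1, Prss3, Gm2663 and 1810009J06Rik passed the low-count filter only through the knockouts, and the 3 that DESeq2 called were among these. The low members were also set apart after their values were seen, so these 5 and their p-values are a description. The log2 fold change of the family share was 2.92 ± 1.17 for Try10 and 4.12 ± 1.52 for Prss3, against -0.28 ± 0.53 for Prss2 and 0.26 ± 0.51 for Try5.

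**Figure D4:**
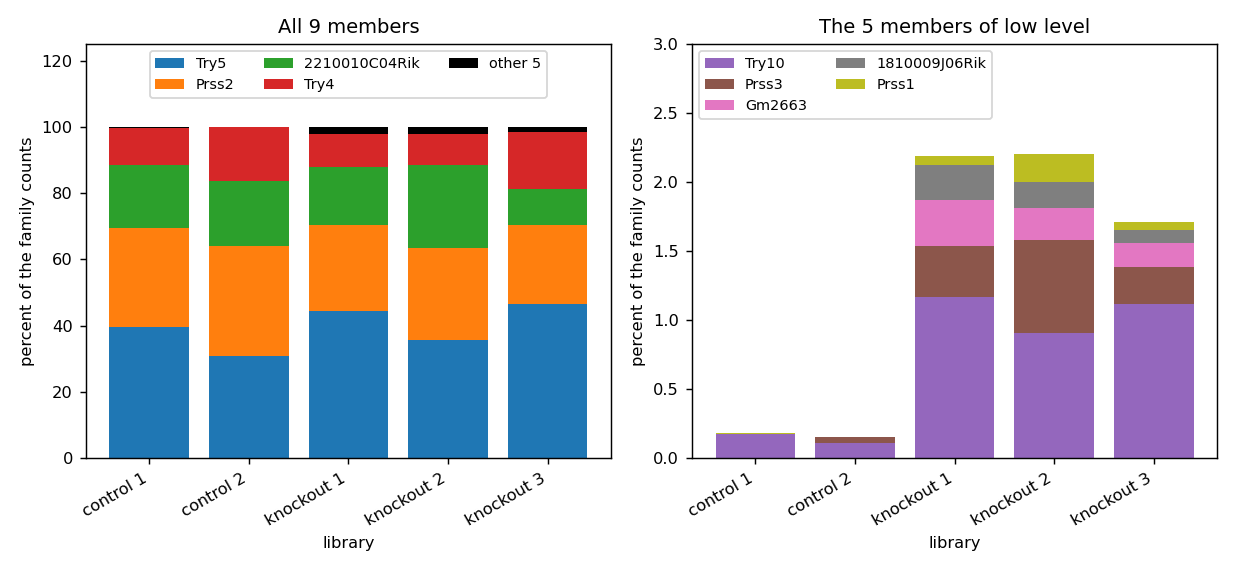
Percent of family counts by member in each library, for all 9 members (left) and for the 5 members of low level on an enlarged axis (right). The low members sum to 0.157% and 0.186% in the controls and to 1.71% to 2.21% in the knockouts.

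Reads that match more than 1 gene bear on every count given here, because the treatment of such reads is not given in the sources used here. Of the 50-base words of the transcript, none of those of 2210010C04Rik and 7.83% of those of Prss2 also occurred in a transcript of another gene. The share was 53.9% for Try5 and 65.6% for Try4, mostly shared between the pair, 40.8% for Try10, 54.9% for Prss1, 66.1% for Prss3, 83.5% for Gm2663 and 81.5% for 1810009J06Rik. The pooled knockout to control ratio of family shares was 0.838 for 2210010C04Rik, 0.809 for Prss2, 0.94 for Try4 and 1.23 for Try5. It was 7.76 for Try10, 15.2 for Prss3, 18.7 for Prss1, and at least 15.9 for Gm2663 and 11.5 for 1810009J06Rik, against the floor of 3 counts over both controls. The members with a ratio above 5 shared 40.8% to 83.5% of their words. Try4 and Try5, with ratios of 0.94 and 1.23, shared 65.6% and 53.9%, and 45.9% of the words of each occurred in the other. Try10 shared 22.8% of its words with Gm5409 and 18.4% with Try4. With words of 100 bases the shares were 0% for Prss2, 11.6% for Try10, 25.6% for Try5, 30.2% for Try4, 21.8% for Prss1, 45.0% for Prss3, 69.3% for Gm2663 and 67.6% for 1810009J06Rik. The part of shared reads in the differences between groups was not tested.

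**Figure D5:**
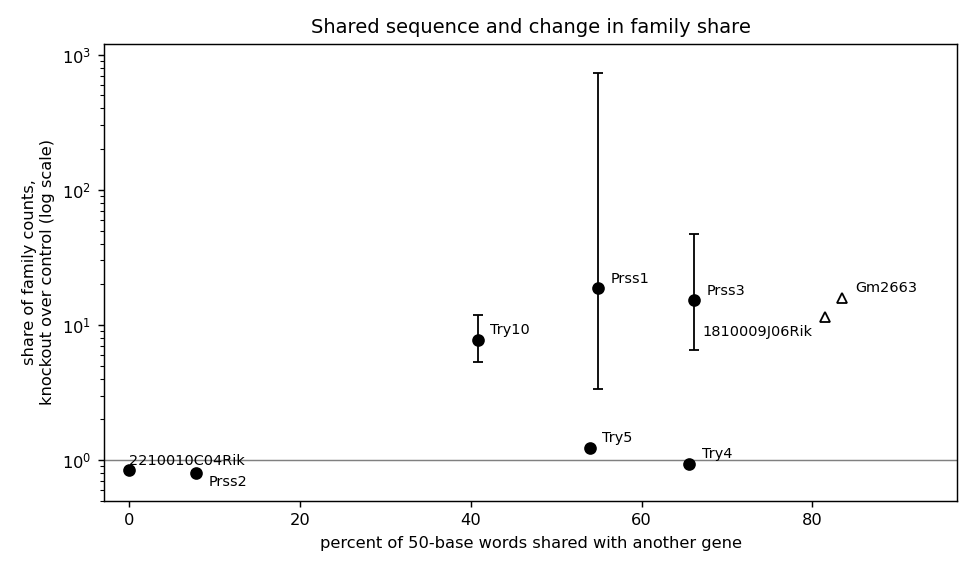
Percent of 50-base transcript words found in another gene (x axis) against the pooled ratio of family shares, knockout over control, on a log scale (y axis); bars are exact 95% intervals and open triangles the bounds at 3 control counts for members without a control count. The 5 low members lie above 5 and the 4 abundant members between 0.809 and 1.23.

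Other trypsin-like gene models of the locus also had few or no control counts, and none was called by edgeR. Gm5771, 97.6% identical to Prss1 in coding sequence and with 3 aspartate codons at the activation site, had 0 and 6 control counts and 957, 1514 and 1598 knockout counts (adjusted p = 0.17, edgeR). Gm10334, 99.1% identical to Prss3, had no control count and 246, 556 and 333 knockout counts, at least 5.17-fold higher than the floor (adjusted p = 0.122, edgeR). The pseudogene Gm5409 had no control count and 28, 19 and 22 knockout counts. Its knockout mean of 6.92 CPM lay below the floor of 21.5 CPM over both controls, so the lack of a control count does not separate the groups. Of the 8 listed trypsin-like genes outside the family, these included, 7 were in the tables and 6 were tested, with 0 called by edgeR, and 1 higher and 1 lower by DESeq2, where it called 0.519% and 5.64% of all genes. At an unadjusted p under 0.05 in edgeR there were 3 of these 6 and 1072 of the 8291 genes. Among them the tissue kallikrein Klk1 had 2163 and 2625 CPM in controls against 7129, 6640 and 3118 CPM in knockouts (adjusted p = 0.438, edgeR). The membrane protease prostasin, Prss8, had 1096 and 333 CPM against 75.7, 119 and 111 CPM (adjusted p = 0.118, edgeR). Matriptase, St14, had 1 count in each control, or 14.8 and 13.9 CPM, against 42.2, 105 and 14.6 CPM in knockouts, with overlap.

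Of 22 genes that act on trypsin or sense it, 21 were in the tables and 10 were tested, with 0 called higher and 1, Pzp, called lower, against 0.193% and 1.60% of all genes. The median log2 fold change was 0.47 over the 10 and 0.22 over all genes tested. Spink3, the acinar trypsin inhibitor, had 2799 and 1361 CPM in controls against 3218, 1912 and 7324 CPM in knockouts, with overlap (log2 fold change 1.00 ± 0.70, adjusted p = 0.556, edgeR). Ctrc, a chymotrypsin that degrades trypsinogen, had 326 and 347 CPM in controls against 31.4, 48.2 and 191 CPM in knockouts. All 3 knockouts lay below both controls, and the log2 fold change of -1.90 ± 1.06 did not pass (adjusted p = 0.454, edgeR). The lysosomal protease Ctsb, which can activate trypsinogen, had 6 and 5 control counts, or 88.9 and 69.4 CPM, and 84.9, 199 and 108 CPM in knockouts. Ctsl, a lysosomal protease that inactivates trypsinogen, had 59.2 and 41.7 CPM against 632, 595 and 44.2 CPM, so knockout 3 stood with the controls (adjusted p = 0.189, edgeR). Ctsd, a further lysosomal protease, had 741 and 181 CPM against 330, 484 and 279 CPM.

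Among inhibitors, the pancreatic serpin Serpini2 had 296 and 41.7 CPM in controls against 62.8, 65.6 and 456 CPM in knockouts, and Serpinb6a 14.8 and 83.3 CPM against 130, 172 and 40.4 CPM. Spink4 had no control count and 74, 153 and 92 knockout counts. Pzp, a broad plasma protease inhibitor, had 0 and 11 control counts and 1, 14 and 2 knockout counts (adjusted p = 0.0278, edgeR), so its higher control level rests on control 2. F2rl1, a receptor that trypsin cleaves, had 2 counts in each control and 6, 26 and 1 in the knockouts (adjusted p = 0.377, edgeR). In CPM this was 29.6 and 27.8 in controls against 1.9, 7.29 and 0.299 in knockouts, lower without overlap. Casr, a calcium-sensing receptor, had 0 and 1 control counts and 1, 1 and 0 knockout counts. Tmprss15, the gene of enteropeptidase, A2m, F2rl3, Spink8, Serpina1c and Serpina1d were at 0 in all 5 libraries, while Spink5, Serpina1a, Serpina1b and Serpina1e had no control count and 2, 2, 15 and 31 knockout counts in all. Knockout means of Spink5, Serpina1a, Serpina1b and Serpina1e ran from 0.187 to 3.21 CPM, below the floor of 21.5 CPM over both controls.

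The promoter table of RefSeq held 6 of the 9 members, and 4 are shown because they span the abundant members that did not pass (Prss2, 2210010C04Rik) and the low members called higher (Prss3, Gm2663). Each is the 250 bases before the start site in GRCm38.p6, 5′ to 3′ on the strand of the gene; the counts come from mm9, per the submitters' processing notes. Capitals mark CACCTG and TTTCCC on either strand, the letters of the E-box and the TC-box that the acinar factor complex PTF1 is known to bind, and TATAAA on either strand.
Prss2, chr6:41521526-41521775, plus strand: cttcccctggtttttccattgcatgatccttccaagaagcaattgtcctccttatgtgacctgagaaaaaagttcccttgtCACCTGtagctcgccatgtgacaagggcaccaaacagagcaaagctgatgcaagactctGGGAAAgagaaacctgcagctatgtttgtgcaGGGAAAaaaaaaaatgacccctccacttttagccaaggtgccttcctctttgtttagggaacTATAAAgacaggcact
2210010C04Rik, chr6:41035510-41035759, minus strand: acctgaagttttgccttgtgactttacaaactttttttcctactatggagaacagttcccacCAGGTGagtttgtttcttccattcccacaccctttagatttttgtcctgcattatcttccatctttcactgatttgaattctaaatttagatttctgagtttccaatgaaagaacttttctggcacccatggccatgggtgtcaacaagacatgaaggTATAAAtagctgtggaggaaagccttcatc
Prss3, chr6:41377614-41377863, minus strand: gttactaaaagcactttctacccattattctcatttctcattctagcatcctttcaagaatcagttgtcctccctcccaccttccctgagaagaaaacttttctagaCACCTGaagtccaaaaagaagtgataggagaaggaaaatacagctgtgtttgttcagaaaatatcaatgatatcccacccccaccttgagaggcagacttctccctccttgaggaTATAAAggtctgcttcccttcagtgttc
Gm2663, chr6:40999480-40999729, minus strand: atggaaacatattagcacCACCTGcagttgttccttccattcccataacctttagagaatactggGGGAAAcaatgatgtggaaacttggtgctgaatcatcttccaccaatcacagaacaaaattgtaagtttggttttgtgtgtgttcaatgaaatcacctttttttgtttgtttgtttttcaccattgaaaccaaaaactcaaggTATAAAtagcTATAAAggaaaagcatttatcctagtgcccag
All 6 promoters held CACCTG and all 6 TATAAA, which occurred in 17.2% and 12.4% of the 32851 promoters of this length. TTTCCC was found in 3 of 6 (Prss1, Prss2 and Gm2663) and in 21.9% of all promoters. Presence of TTTCCC thus did not separate the abundant from the low members, since Prss2 held it and 2210010C04Rik did not, and Gm2663 held it and Prss3 did not. A match is a description of the letters in this window and not a binding site.

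The 5 genes outside the family whose profile over the 5 libraries was nearest to the family sum were Clps, Rpl41, Rpl32, Zg16 and Cox6b1, out of 256 genes that averaged 100 CPM or more and had a count in every library. The measure was the root mean square difference of log2 CPM after centring each gene on its mean, and it was 0.169 for Clps, 0.19 for Rpl41, 0.298 for Rpl32, 0.308 for Zg16 and 0.333 for Cox6b1. Rpl41 and Rpl32 encode ribosomal proteins and Cox6b1 a subunit of cytochrome c oxidase. Clps, the cofactor of pancreatic lipase, had 21403 and 17665 CPM in controls against 26348, 23567 and 46558 CPM in knockouts. Zg16, a zymogen granule protein, had 13153 and 7569 CPM against 12839, 9394 and 18699 CPM, with overlap. Like the family sum, Clps, Rpl41, Zg16 and Cox6b1 were at their highest in knockout 3, while Rpl32 was highest in knockout 1. The genes were picked for a profile like that of the family sum, so a shared peak was built in. In the controls Rpl41 had 148 and 111 CPM and Cox6b1 74.1 and 111 CPM, where 3 counts correspond to 44.4 and 41.7 CPM.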

How the data were processed

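Poly(A) RNA of primary mouse acinar cells was measured in 5 libraries, grouped by the sample titles. The deposited files hold raw read counts per gene symbol, without normalization. Per the submitters' processing notes the authors used build mm9 with HTSeq 0.9.1, TopHat2 2.1.1, Cuffdiff 2.2.1.5 and Cuffnorm 2.2.1.2. The roles of these tools, the annotation and the handling of multiply matching reads are, for this series, not given in the sources used here. Libraries held 291677 to 4049215 counts in all.

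The members and lists were chosen with earlier results of these data known. Counts were fitted with edgeR 4.0.16 in R 4.3.3 (quasi-likelihood test, glmQLFit and glmQLFTest, robust) with group as the only term. Library sizes were totals without Rn45s and Lars2, both left out of the fit, and filterByExpr kept 8291 genes, of which 33.5% had no control count. Benjamini-Hochberg adjustment ran over all of them, with a threshold of 0.05. A further fit used the family sum as library size. Single values per library were compared by exact permutation (SciPy 1.17.1). Intervals of pooled ratios are exact binomial, and bounds use 3 counts over both controls.

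Alternatives were other scalings, filters, DESeq2 1.42.0, limma-voom (limma 3.58.1), the replicate number as a block, and each library left out. Named genes were all members, every gene of the lists of trypsin-like genes and genes acting on trypsin, and the 5 genes nearest to the family sum in profile. Transcripts came from GENCODE M21, where all 9 members matched by symbol, and promoters from RefSeq (GRCm38.p6), where 6 did. The test was checked on simulated counts.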

Additional observations from a re-analysis of the deposited data

How the results depend on the processing

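As reported, 149 genes (16 higher, 133 lower) and 4 members were called. With TMM on all genes and full totals 32 genes and 2 members were called, with TMM without Rn45s and Lars2 218 and 5, with upper quartile factors 365 and 2, and with RLE factors 2 members. The split of higher and lower genes was 147 and 71 with TMM without Rn45s and Lars2, 149 and 19 with full totals, 0 and 113 by limma-voom, 18 and 17 at a mean of at least 100 CPM, 4 and 5 under the replicate block, and 11 and 354 with upper quartile factors. Full totals, with a log2 family sum ratio of 3.12 in place of 0.69, called 9 members. The replicate block called 9 genes and 0 members, with Try4 at a log2 fold change of -0.05, and limma-voom called 0 members (4 at an unadjusted p under 0.05, as were 800 of 8291 genes). No low-count filter called 917 genes, a mean of at least 100 CPM 35 and DESeq2 511. With 1 library left out, the number of genes ran from 4 (without knockout 1) to 395 (without control 1) and of members from 0 (without knockout 1) to 4. On shares of the family sum, where 0 members were called, a mean of at least 100 CPM called 2 (14 higher and 19 lower of 301 genes), DESeq2 3, and leaving out a library 0 to 1, with Gm2663 called without knockout 2 or knockout 3. The replicate block called none there. Under the block the adjusted p was 0.109 for Gm2663, 0.279 for 1810009J06Rik, 0.257 for Prss3 and 0.342 for Try10 (edgeR; log2 fold changes 5.21 for Prss3 and 3.35 for Try10), and by limma-voom it was 0.175, 0.24, 0.161 and 0.0699. Whether same-numbered libraries shared more than a number is not known. Correlations of their deviations from the group means were -0.064 and -0.0207 over 301 genes. The deviations of the 2 controls from their mean mirror each other and come from few counts, so these values cannot decide it. The cause of the dependence on the settings was not tested.

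The median log2 fold change over all genes was 0.22 as reported, 2.05 with TMM on all genes and full totals, 1.93 with TMM without Rn45s and Lars2, 1.49 with RLE and 0.33 with upper quartile factors. All 9 members lay above it under each of these scalings, but 5 with no low-count filter, 5 under the replicate block, 3 without control 1, 3 without control 2 and 7 without knockout 3. The low-count filter was run anew for each library left out, so the genes behind those medians differ. The family sum and its ratio to chymotrypsinogens and elastases kept their direction under the alternatives tried. The control totals of 67514 and 72006 counts limit the low members.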
